A study of Mus musculus with 2 samples.

Results

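Hi-C pairs that joined chromosome 1 to another chromosome were spread thinly, and 58 windows of 5 kb on chromosomes 2 to 19 form the upper end of the counts per window. They were chosen by their pair count: a window was a member when the wild-type and Lin28a knockout libraries together held 50 or more pairs with the first end on chromosome 1 and the second end in the window. Of 426622 windows with at least 1 such pair, the 58 members made up 0.0136%. The rule left out 2 further windows past the same count, in 1 segment of chromosome 8. The count therefore chose the members, and it is given here as a description. The measures that the choice did not use were the place of the partner along chromosome 1, the mapping quality of the ends, the partners on chromosome 2, the sequence and the annotation.

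Both libraries were Hi-C libraries from mouse embryonic stem (ES) cells, 1 from wild-type cells and 1 from Lin28a knockout cells, grown for 2 days in LIF/2i medium on gelatin-coated plates with MEF (embryonic fibroblast) feeder cells. The labels name no strain, sex or clone, and the knockout line that went into the library is not given in the sources used here. Contact lists hold no expression, so that the cell type could not be checked against markers and the share of feeder cells is unknown. Over the Lin28a gene itself the lists held 12 wild-type and 15 knockout pairs, too few to check the labels. First ends were taken between 3 and 90.75 Mb of chromosome 1, the part that both lists covered. There the wild-type library held 2235886 trans pairs to chromosomes 2 to 19 and the knockout library 1718683. With 1 library per group there is no test between groups, and every interval below is a 95% interval that covers counting error only.

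In Hi-C, DNA ends that lay close together in the nucleus are ligated and read as a pair. Pairs within a chromosome become rarer with distance, whereas trans pairs, between chromosomes, are spread over the genome. Of all pairs with the first end in the part of chromosome 1 used here, 40.3% were trans in each library. Ribosomal DNA (rDNA) repeats encode the 18S, 5.8S and 28S ribosomal RNAs behind an external transcribed spacer (5'ETS). They lie in long arrays on several mouse chromosomes, and the nucleolus forms around them. The arrays are largely missing from the mouse reference assembly, which holds isolated rDNA pieces. LIN28A is an RNA-binding protein, and the study asked about its part in the nucleolus and in the 2-cell-like program of ES cells.

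The study's own primers for ribosomal RNA and rDNA gave the first identity of the members. Of 20 such primers, 13 had an exact site in a member, and the 16 sites fell in 5 of the 58 windows. Over the assembled chromosomes there were 41 such sites in 29 windows, so that most windows with a site were not members. Both primers of a pair faced each other in 9 places, 7 of them in members. The sequences below are shown because they are what marks these 5 windows as ribosomal; capitals mark the primer sites, and each is written from the forward to the reverse primer (mm10).
5'ETS, chr17:39844489-39844606, plus strand: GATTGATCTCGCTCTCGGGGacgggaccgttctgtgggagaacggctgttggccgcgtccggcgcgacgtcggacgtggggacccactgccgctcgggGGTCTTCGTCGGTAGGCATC
18S, chr17:39846806-39846960, plus strand: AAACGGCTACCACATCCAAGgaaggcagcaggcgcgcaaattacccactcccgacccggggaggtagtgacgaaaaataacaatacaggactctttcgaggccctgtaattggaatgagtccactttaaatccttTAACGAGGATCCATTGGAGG
18S, chr6:3200895-3201049, plus strand: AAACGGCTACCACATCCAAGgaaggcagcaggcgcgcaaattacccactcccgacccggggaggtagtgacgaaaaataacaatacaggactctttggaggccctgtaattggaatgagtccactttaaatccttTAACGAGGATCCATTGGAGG
28S, chr16:57391325-57391493, minus strand: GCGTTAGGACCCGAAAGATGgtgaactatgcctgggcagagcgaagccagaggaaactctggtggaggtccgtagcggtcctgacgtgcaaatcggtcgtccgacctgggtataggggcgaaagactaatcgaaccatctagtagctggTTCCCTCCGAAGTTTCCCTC
28S forward primer, chr9:123462011-123462030, plus strand: ATCCTTCGATGTCGGCTCTT
28S reverse primer, chr9:123462101-123462120, minus strand: CCTGTCTCACGACGGTCTAA
The chr17 and chr6 copies of the 18S stretch were both 155 bp long and differed at 1 base. The 28S primers on chromosome 9 spanned 110 bp in an untranslated part of Lars2, the mitochondrial leucyl-tRNA synthetase. The 28S stretch of 169 bp on chromosome 16 lay in an intron of Cmss1 and Filip1l. The annotation placed Gm26917 at the 5'ETS window and Gm26917, CT010467.1 (an rRNA gene), Gm42418 and AY036118 at the 18S window of chromosome 17. The chr6 window overlapped no gene.

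The threshold cut a continuous tail. Over all windows with pairs the median was 9 pairs, and the 99th percentile 24. Of the members, 9 stood at exactly 50 pairs, and just outside the rule lay 4 windows with 49 and 4 with 48. The richest member held 733 pairs and the median member 57.5. Together the members held 3169 wild-type and 2768 knockout pairs, 0.142% and 0.161% of the trans pairs of each library. On each side of a member, 50 kb of flank gave the local level. The median fold over the flanks was 5.44 in the wild-type library, with a range from 1.26 to 68.9, and 5.61 in the knockout library, with a range from 1.23 to 68.6. Over all windows the median fold was 0.952 in each library and the 99th percentile 2.86 and 3.08.

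The members fell into 4 classes, set after the values had been seen and used here only to order them. The ribosomal class has the 5 windows with primer sites. No full rDNA repeat was searched, so that members with other parts of it would stand in the other classes. A second class of 16 drew 15% or more of their pairs from a single 1 Mb stretch of chromosome 1 and are called one-place windows. Another 16 lay in stretches whose flanks were themselves at 2 times the chromosome's mean or more. The remaining 21 are called other narrow windows.

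**Figure D1:**
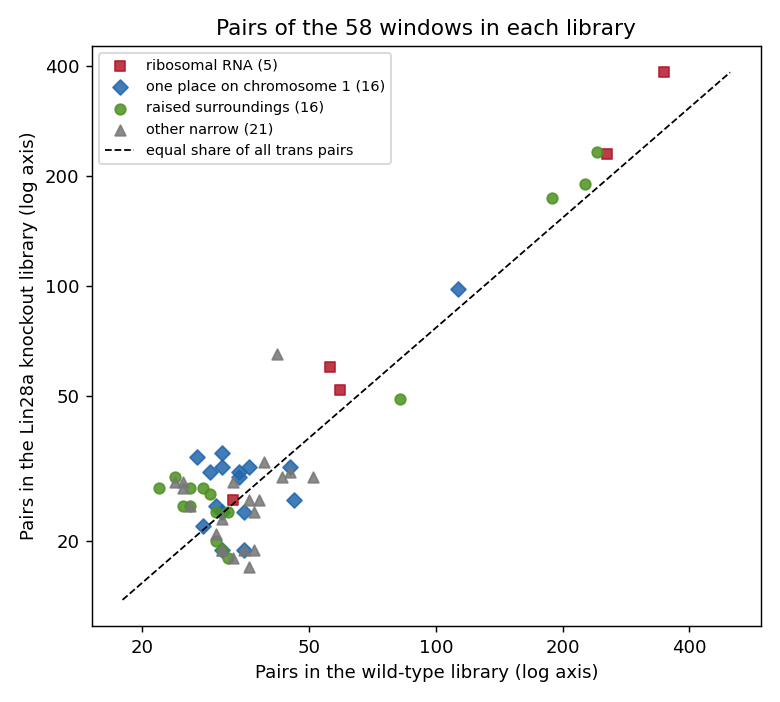
Pairs of each of the 58 windows in the wild-type library (x axis, log) and the Lin28a knockout library (y axis, log), with 1 point per window and a marker for each class. The dashed line marks equal shares of all trans pairs. The window with 18S sequence on chromosome 17 lies at the top right, at 349 and 384 pairs, and most windows lie between 20 and 60 pairs in each library.

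Both ribosomal windows on chromosome 17 held more pairs than any other member. The 18S window at chr17:39845000-39849999 held 349 wild-type and 384 knockout pairs. Its fold over the flanks was 20.5 (18.4 to 22.8) in the wild-type and 27.0 (24.4 to 29.9) in the knockout library. The neighbouring 5'ETS window at chr17:39840000-39844999 held 255 and 230 pairs, 11.8-fold and 10.4-fold over flanks that included the 18S window. The 2 windows together stood at 56.2 times the mean density of chromosome 17 in the wild-type library and 75.7 times in the knockout library.

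The other 3 windows with primer sites held fewer pairs. The 28S window in Cmss1, a gene named for a yeast small ribosomal subunit factor, and Filip1l, a filamin A-interacting protein, held 56 and 60 pairs. Its fold was 8.24 in the wild-type and 16.2 in the knockout library. The 28S window in Lars2 held 59 and 52 pairs, a fold of 14.4 and 15.3. The 18S window on chromosome 6, which began 0.15 Mb from the first known base of that chromosome, held 33 and 26 pairs, a fold of 6.88 and 5.42. Most of their pairs sat in a narrow core: the densest 300 bp held 89.7% of the pairs of the Cmss1 window, 84.7% of those of the Lars2 window and 66.1% of those on chromosome 6.

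The partners of the ribosomal windows came from all along chromosome 1. The 18S window on chromosome 17 was reached from 88 different 1 Mb bins, the 5'ETS window from 87, the Lars2 window from 65, the Cmss1 window from 63 and the chr6 window from 40. The richest 1 Mb stretch, centred on a pair, gave at most 6.78% of the pairs of any of them, and the richest fixed 1 Mb bin at most 8.47%, both at the chr6 window. The same windows were also rich when the first end lay on chromosome 2, in knockout pairs that the choice of members did not use. The fold over the flanks was then 21.4 for 18S and 13.4 for 5'ETS on chromosome 17, 13.8 at Cmss1, 11.7 at Lars2 and 2.90 on chromosome 6.

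Along chromosome 1 the ribosomal pairs came less from gene-rich bins than all trans pairs did, which was not particular to them. The bins of chromosome 1 were split into 3 equal parts by gene content. The part with most genes gave 34.6% (31.2 to 38.1) of the 752 wild-type ribosomal pairs and 34.7% (31.3 to 38.2) of the 752 knockout ones. Over all trans pairs it gave 39.4% and 39.5%. The part with fewest genes gave 29.9% (26.7 to 33.3) and 30.1% (26.8 to 33.5), against 26.5% and 26.4% over all trans pairs. Both libraries showed almost the same shares. The 4 windows at Sfi1 and Drg1 on chromosome 11 likewise stood below all trans pairs in the part with most genes, at 32.7% (29.3 to 36.2) and 28.2% (24.7 to 31.8). The 3 ribosomal windows off chromosome 17 had 148 and 138 pairs. In the part with most genes they stood at 31.8% (24.4 to 39.9) in the wild-type library. In the knockout library they stood at 41.3% (33 to 49.99), above all trans pairs. Both intervals include the share of all trans pairs in the same library. The 2 ribosomal windows on chromosome 17 stood at 35.3% and 33.2%.

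Summed over the 5 windows, the libraries held 752 pairs each, and the knockout to wild-type ratio, scaled to all trans pairs, was 1.30 (1.17 to 1.44). The 18S window on chromosome 17 gave a ratio of 1.43 (1.24 to 1.66), the Cmss1 window 1.39 (0.952 to 2.04), the 5'ETS window 1.17 (0.978 to 1.41), the Lars2 window 1.15 (0.774 to 1.69) and the chr6 window 1.02 (0.589 to 1.77). On this scale all 5 values lay above 1, and 1 of the 5 intervals excluded it. Of 50 kb windows with 50 or more pairs over chromosomes 2 to 19, 4.89% had an interval above 1. Without chromosomes 6 and 8 the share was 1.82%. The median 50 kb window held 91 pairs and the 18S window on chromosome 17 held 733, so that these shares are not at a like depth. Within 500 bp of the 18S stretch printed above, the ratio was 1.56 (1.26 to 1.95) on chromosome 17, with 153 and 184 pairs, and 0.65 (0.325 to 1.25) on chromosome 6, with 30 and 15 pairs. The direction of single windows also depended on the scale. The chr6 window stood at 0.827 (0.475 to 1.43) scaled to its own chromosome and at 0.788 (0.453 to 1.36) scaled to the flanks. The 5'ETS window stood at 0.882 (0.734 to 1.06) scaled to its flanks, which included the 18S window with its ratio of 1.43. On the same scale the 18S window on chromosome 17 stood at 1.32 (1.14 to 1.53), with the 5'ETS window in its flanks. The Cmss1 window stood at 1.97 (1.345 to 2.887) and the Lars2 window at 1.06 (0.718 to 1.57). Scaled to the flanks, the sum of the 5 gave 1.13 (1.02 to 1.25), and 1.47 (1.33 to 1.63) when other members were left out of the flanks. In the smaller sequencing run of each library the ratio was 1.11 (0.727 to 1.67). By the read names the libraries shared no sequencing lane, so that lane and genotype cannot be told apart.

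The 16 one-place windows differed by definition, and a single stretch of chromosome 1 accounted for 19.4% to 63.2% of their pairs. Among windows with 30 to 49 pairs, which the rule left out, 7.78% reached the same 15%. The largest of the 16 lay in Arid5b, a DNA-binding chromatin regulator, at chr10:68095000-68099999. It held 113 wild-type and 98 knockout pairs, 18.2-fold and 31.1-fold over its flanks, and 41.2% of them had their first end in the 1 Mb around 17.5 Mb of chromosome 1. The highest share, 63.2% of 68 pairs, belonged to chr14:108335000-108339999, which overlapped no gene, with its partners around 90.4 Mb. A window in Pak2, a p21-activated kinase, had 49.1% of 55 pairs around the same 90.4 Mb. The part of chromosome 1 analysed here ended at 90.75 Mb, close to both places.

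The other one-place windows pointed to other places. The gene-free window chr3:56480000-56484999 had 50.8% of 63 pairs around 87.6 Mb, where the locus fell in Neu2, a sialidase gene. The window in Afm, which encodes the vitamin E-binding plasma protein afamin, had 48.0% of 50 pairs around 20.7 Mb. The gene-free window chr7:111990000-111994999 had 44.3% of 61 pairs around 45.6 Mb. The window with Snhg12, a small nucleolar RNA host gene, Snora44, Snora61, Snord99 and Trnau1ap, a selenocysteine tRNA-associated protein, held 34 and 30 pairs, 32.8% of them around 67.4 Mb. The window in AC132253.9 held 34 and 31 pairs, 36.9% around 30.7 Mb. That in Cacna1c, an L-type calcium channel subunit, held 45 and 32 pairs, 27.3% around 66.9 Mb. That in Cntnap3, a contactin-associated protein, held 46 and 26 pairs, and at 19.4% around 85.5 Mb it was the lowest of the 16. The window chr5:4285000-4289999 held 31 and 35 pairs, 34.8% of them around 14.9 Mb at Trpa1, a sensory ion channel gene.

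Some of these windows had a close copy of their densest 300 bp at the very place on chromosome 1 where the partners lay. For 3 of the 16, a copy of at least 200 bp and 95% identity lay within 1 Mb of that place. For 2 of these, the window's sequence and its copy are printed to show how alike they are; capitals mark the bases that differ (mm10).
Afm window, chr5:90533691-90533990, plus strand: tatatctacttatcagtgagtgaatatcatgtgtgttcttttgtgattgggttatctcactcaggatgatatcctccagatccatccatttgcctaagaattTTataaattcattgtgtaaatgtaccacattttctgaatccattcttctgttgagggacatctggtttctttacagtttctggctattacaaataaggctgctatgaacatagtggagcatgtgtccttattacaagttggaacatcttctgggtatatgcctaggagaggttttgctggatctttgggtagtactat
chromosome 1, chr1:20663785-20664084, minus strand: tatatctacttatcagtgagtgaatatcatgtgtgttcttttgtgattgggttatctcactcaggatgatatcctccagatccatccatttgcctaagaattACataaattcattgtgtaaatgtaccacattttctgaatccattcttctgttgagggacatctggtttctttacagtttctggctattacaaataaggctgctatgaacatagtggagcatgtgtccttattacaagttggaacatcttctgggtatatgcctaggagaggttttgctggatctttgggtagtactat
chr14 window, chr14:100993584-100993880, plus strand: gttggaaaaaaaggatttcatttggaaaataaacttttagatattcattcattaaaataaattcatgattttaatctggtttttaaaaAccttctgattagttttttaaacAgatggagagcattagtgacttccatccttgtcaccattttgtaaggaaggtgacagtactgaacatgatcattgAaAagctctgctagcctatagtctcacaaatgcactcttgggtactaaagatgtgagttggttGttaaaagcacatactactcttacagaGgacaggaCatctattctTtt
chromosome 1, chr1:25369065-25369361, minus strand: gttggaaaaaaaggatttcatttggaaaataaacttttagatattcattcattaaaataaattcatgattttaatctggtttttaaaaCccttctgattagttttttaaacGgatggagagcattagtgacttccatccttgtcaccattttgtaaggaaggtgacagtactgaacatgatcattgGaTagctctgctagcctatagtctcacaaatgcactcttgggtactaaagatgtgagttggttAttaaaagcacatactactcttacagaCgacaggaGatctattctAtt
The Afm pair matched at 99.3% over 300 bp with 2 mismatches, and its copy lay 0.492 kb from the median position of the partners. The chr14 pair matched at 97.3% over 297 bp with 8 mismatches, 36.5 kb from the median. The last, chr13:68440000-68444999, had a copy at 96.0% with 12 mismatches, 231 kb from the median near Sp100, a nuclear body protein gene. Its flanks were almost empty, at 0.45 wild-type and 0.35 knockout pairs per 5 kb, which gave the largest folds of all members, 68.9 and 68.6. For the other 13 windows this search found no such copy within 1 Mb; 7 of them had one farther along chromosome 1.

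The flanks shared little of the link to one place. In the 50 kb on either side of the 16 windows, 47 of 2777 pairs, 1.69% (1.25 to 2.24), fell in the same stretch of chromosome 1, above the 1.08% of all trans pairs and far below the windows. The flanks of 14 of the 16 had shares between 0 and 2.18%. The exceptions were chr14:108335000-108339999, where 16 of 127 flank pairs, 12.6% (7.38 to 19.7), fell there, and chr13:68440000-68444999, with 2 of 16.

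**Figure D2:**
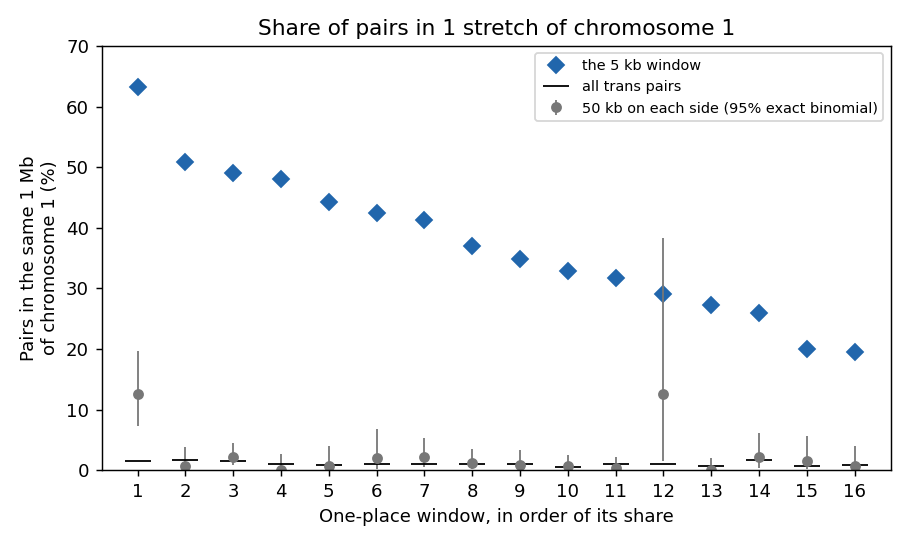
Share of pairs (y axis, percent, both libraries) in the richest 1 Mb of chromosome 1 for the 16 one-place windows (x axis, in order of share). Diamonds are the window, circles its 50 kb flanks with 95% exact binomial intervals and dashes all trans pairs; the windows lie between 19.4% and 63.2% and 14 of the 16 flanks at or below 2.18%.

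The libraries pointed to the same places. The stretch was found in the wild-type library alone and the knockout pairs were then counted in it. It held 177 of 514 knockout pairs, 34.4% (30.3 to 38.7), against 1.06% of all knockout trans pairs. In the smaller sequencing runs alone the share was 8.33% (1.03 to 27), with the stretch found again from the wild-type pairs of that run. These runs held 324 wild-type and 126 knockout pairs over all members, so that few pairs placed each stretch. In reverse, the stretch found in the knockout library held 181 of 616 wild-type pairs, 29.4% (25.8 to 33.2). In the ribosomal windows the same counts gave 1.20% and 1.46%. In 13 of the 16 windows the 2 libraries' centres lay within 1 Mb of each other. The exceptions were the windows in Cacna1c and Cntnap3 and chr8:31535000-31539999, whose centres lay 1.33, 2.33 and 1.24 Mb apart. Since both libraries together had been used to name the class, these shares are descriptions.

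**Figure D3:**
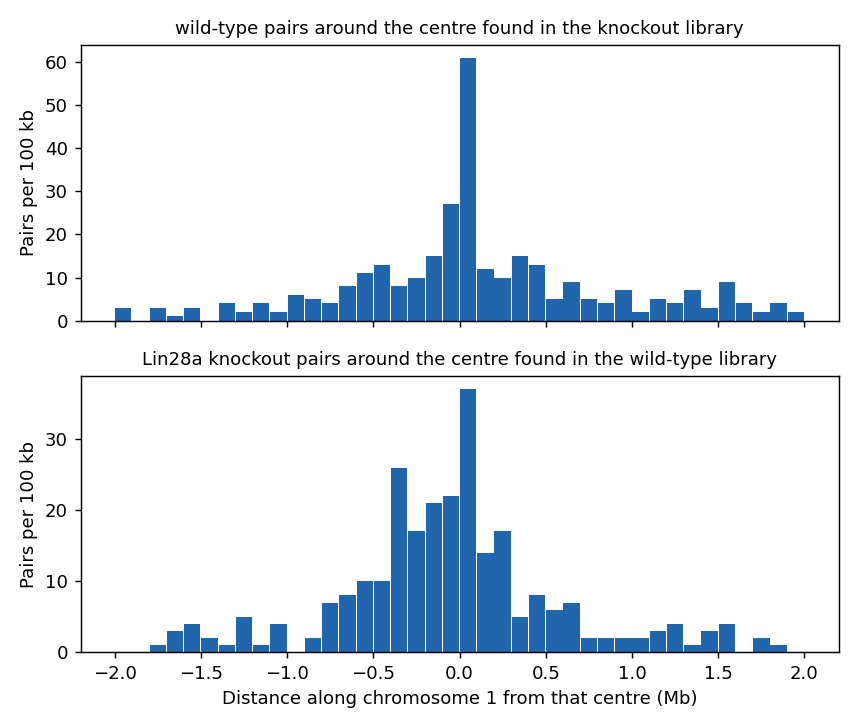
Pairs of the 16 one-place windows by distance along chromosome 1 (x axis, Mb, bins of 100 kb; y axis, number of pairs), wild-type pairs above and Lin28a knockout pairs below, each around the centre found in the other library. Both are highest near 0: 88 of 616 wild-type pairs and 59 of 514 knockout pairs lay within 100 kb.

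From chromosome 2 the one-place windows were not rich. Summed over 15 of them, knockout pairs with the first end on chromosome 2 stood at 1.33 (0.987 to 1.75) times the flanks, with 50 pairs in all, and 1 of the 15 reached 3-fold. The Arid5b window had 4 such pairs against 2.4 in the mean flank window. The 1 window past 3-fold was in Zmiz1os1, a noncoding RNA gene beside Zmiz1, with 17 pairs and a fold of 3.47. Leaving out 2 members on chromosome 2 itself and 1 with empty flanks, 55 members could be compared, and of these 22 reached 3-fold, set against 3.03% of all windows. These were 4 of 5 ribosomal windows, 1 of 15 one-place windows, 3 of 16 windows in raised surroundings and 14 of 19 other narrow windows. Unknown bases, which can hold no pairs, made up 28.1% or more of the flanks of 5 narrow windows on chromosomes 4 and 8. Counted per known base of the flanks, 19 members reached 3-fold, 11 of them narrow windows; the share over all windows was not recounted this way.

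**Figure D4:**
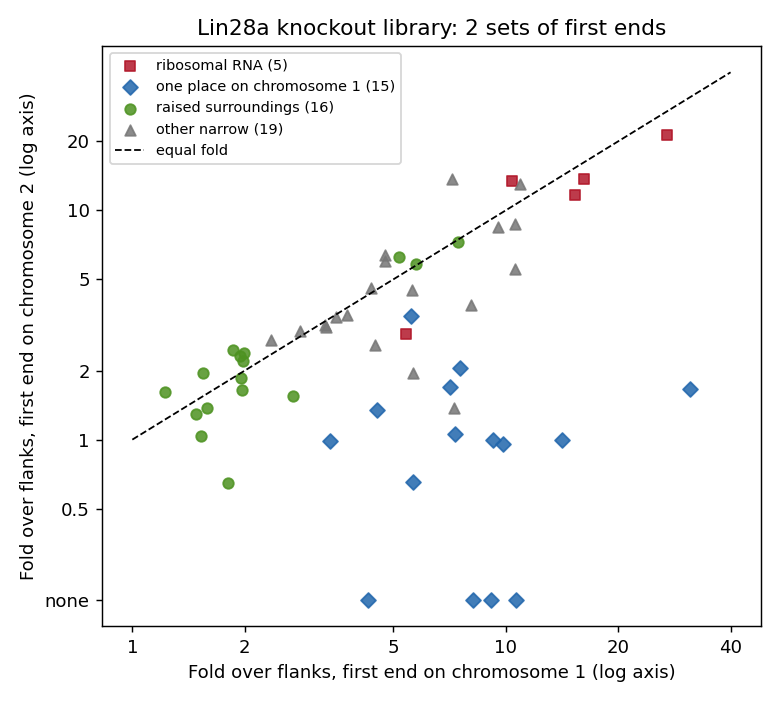
Fold over flanks in the Lin28a knockout library for pairs with the first end on chromosome 1 (x axis, log) and on chromosome 2 (y axis, log), 1 point per window for the 55 windows with flank pairs; windows with no pair are drawn at the bottom as none. The 15 one-place windows lie below the line of equal fold, and 4 of the 5 ribosomal windows lie at 11.7 or above on the y axis.

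Another 16 windows lay in surroundings that were themselves rich, and not every one stood clearly above them. The foremost were 4 adjacent windows near the start of chromosome 11, from 3180000 to 3199999, over Sfi1, a centriole-associated protein gene, Drg1, a GTP-binding protein gene, Gm12735 and Fau-ps2, a pseudogene. From first to last they held 82, 189, 241 and 226 wild-type pairs and 49, 174, 233 and 190 knockout pairs. Their density was 28.7 times the mean of chromosome 11 in the wild-type and 33.9 times in the knockout library. The flanks of each window included the others of the 4 and stood at 6.0 to 7.51 times that mean. The fold over these flanks was at most 6.71 and 7.47. At the first window it was 1.86 (1.48 to 2.31) in the wild-type and 1.23 (0.906 to 1.62) in the knockout library. From chromosome 2 the windows held 73, 233, 261 and 219 knockout pairs, and the last 3 of them stood 5.82-fold to 7.30-fold over their flanks.

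The partners of these 4 windows on chromosome 1 leaned towards its first part. The 17 Mb from 3 to 20 Mb gave 225 of the 738 wild-type pairs, 30.5%, and 264 of the 646 knockout pairs, 40.9% (37.1 to 44.8). Over all trans pairs these 17 Mb gave 19.6% in each library, and over the ribosomal windows 21.5% and 23.0%. Both chromosomes' stretches lie beside the centromeric end, since mouse chromosomes carry the centromere at the start.

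The other raised stretches were lower and wider. Along chromosome 13, 7 windows between 12810000 and 12929999 had the prolactin-family genes Prl2c3 and Prl2c2 as nearest coding genes and held 22 to 32 wild-type and 24 to 28 knockout pairs each. The next, chr13:12965000-12969999, had 31 and 23 pairs with lower flanks and is counted with the narrow windows. The 160 kb from the first to the last of these 8 stood at 3.65 and 4.41 times the mean of chromosome 13, and 1 of the windows overlapped a gene, Gm48527. On chromosome 17, 4 windows over 90 kb stood at 2.98 and 3.29 times the mean, 3 of them in Gm26848, in part with Tmem181b-ps, and the last, chr17:6530000-6534999, counted with the narrow windows. Elsewhere on chromosome 17, 2 windows that overlapped Btbd9, a BTB-domain protein gene, spanned 110 kb at 3.04 and 3.18 times. Apart from the windows on chromosome 11, the 12 windows of the class stood between 1.26-fold and 2.20-fold over their flanks in the wild-type library and between 1.48-fold and 2.69-fold in the knockout library. The lowest were 1.26 (0.788 to 1.90) at chr13:12920000-12924999 in the wild-type and 1.48 (0.878 to 2.34) at chr17:6470000-6474999 in the knockout library. Both intervals include 1.

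The 21 other narrow windows held 728 wild-type and 560 knockout pairs, and no more than 10.7% of the pairs of any of them came from 1 Mb of chromosome 1. Their median fold was 5.71 in the wild-type and 5.63 in the knockout library, and from chromosome 2 it was 3.85. The densest 300 bp of 1 window are printed because, of all members, it matched itself most when shifted (plus strand, mm10).
chr5 window, chr5:68220995-68221294: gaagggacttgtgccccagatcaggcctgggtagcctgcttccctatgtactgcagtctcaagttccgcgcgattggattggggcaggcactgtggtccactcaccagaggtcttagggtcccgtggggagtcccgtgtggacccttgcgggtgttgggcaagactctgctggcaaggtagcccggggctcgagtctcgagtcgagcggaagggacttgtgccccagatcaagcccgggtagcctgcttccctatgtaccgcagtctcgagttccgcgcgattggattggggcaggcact
This window held 37 and 19 pairs, 71.4% of them in the 300 bp shown, which had 3711 copies at 95% identity or more in the assembly. Set against itself at a shift of 208 bp, it matched at 56.1% of its letters. A window at chr4:81155000-81159999 held 51 and 30 pairs with 92.6% of them in 300 bp that had 11402 such copies. The window chr2:98665000-98669999 overlapped Gm10800 and held 24 and 29 pairs. Of these pairs, 88.7% lay in 300 bp that overlapped no gene. The fold of this window was 8.14 in the wild-type and 17.1 in the knockout library, the latter the highest of the class. Of its ends, 35.85% had a mapping quality of 30 or more. Its ratio was 1.57 (0.884 to 2.82), and 2.10 (1.18 to 3.76) scaled to its flanks.

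Further narrow windows came in groups. On chromosome 4, 4 windows between 146050000 and 147404999 had zinc finger genes (Zfp987, Zfp992, Zfp978) as nearest coding genes, overlapped Gm13036, Gm26573, Gm13245, C230088H06Rik or Gm26624, if any gene, and held 31 to 35 wild-type and 18 or 19 knockout pairs each, and stood 4.49-fold to 13.7-fold over their flanks from chromosome 2, or 2.78-fold to 13.7-fold per known base. On chromosome 8, 4 windows between 19910000 and 20519999 held 26 to 42 and 25 to 65 pairs. Per known base the flanks of chr8:19910000-19914999 and chr8:20510000-20514999 stood at 2.39 and 2.18 times the chromosome's mean, which would place both among the raised surroundings. The pair of windows in BC018473 on chromosome 11 held 36 and 37 wild-type and 26 and 24 knockout pairs. The window in Zc3h7a, a CCCH zinc-finger protein gene, held 39 and 33 pairs and stood 6.02-fold over its flanks from chromosome 2. Its densest 300 bp, with 69.4% of the pairs, overlapped Gm23935, which the annotation calls a miRNA. It held no primer site, and whether it holds rDNA sequence was not tested. The window chr17:6530000-6534999 had 43 and 30 pairs, and chr2:181915000-181919999 had 45 and 31, neither over a gene. The window in Zfp180 had 25 and 28 pairs, and chr15:8800000-8804999 had 30 and 21. The window chr16:3270000-3274999 held 36 and 17 pairs, a ratio of 0.614 (0.324 to 1.12), and scaled to its flanks the ratio was 0.469 (0.247 to 0.857). The window chr12:51490000-51494999 held 25 and 29 pairs and adjoined a one-place window with 35 and 19 pairs, of which 14, or 25.9%, came from 1 Mb around 88.3 Mb; it showed no such stretch itself, at 9.26%.

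Few windows separated the libraries. The interval of the knockout to wild-type ratio lay above 1 in 3 of the 58 and below 1 in 0. Among 39871 windows of 50 kb with 50 or more pairs and a median of 91, 4.89% lay above 1 and 4.03% below. With chromosomes 6 and 8 left out of that set, 1.82% lay above and 4.6% below. The 3 were the 18S window on chromosome 17, the window over Sfi1, Drg1 and Gm12735 at 1.26 (1.05 to 1.51), and chr8:20515000-20519999 at 2.01 (1.35 to 3.04). This last window held 42 wild-type and 65 knockout pairs, next to a window with 38 and 26. Chromosome 8 as a whole was higher in the knockout library, and scaled to its own chromosome the ratio of the window was 1.51 (1.01 to 2.28). Scaled to flanks, the Sfi1 and Drg1 window stood at 1.11 (0.925 to 1.34), and 6 windows lay above 1 and 3 below. The share over all windows was not counted on that scale, so these counts have no background to set them against.

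Summed over all 58 windows the knockout to wild-type ratio was 1.14 (1.08 to 1.20). The ribosomal windows stood at 1.30, those in raised surroundings at 1.14 (1.05 to 1.25), the one-place windows at 1.09 (0.964 to 1.22) and the other narrow windows at 1.00 (0.895 to 1.12). Scaled to the flanks the sum gave 1.04 (0.992 to 1.10), and with the segment of chromosome 8 kept it gave 1.03 (0.984 to 1.09), and both intervals include 1. The smaller runs gave 1.04 (0.838 to 1.28).

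Ends in the windows were placed with less certainty than other ends. A mapping quality of 30 or more was given to 76.2% (74.7 to 77.7) of the 3169 wild-type and 75.9% (74.3 to 77.5) of the 2768 knockout ends in the members. Over all trans pairs the share was 92.5% and 91.8%. The first ends, on chromosome 1, were placed as well as elsewhere, with a median of 92.6% per window. The lowest share, 25.9%, was at chr4:81155000-81159999, and the lowest among the one-place windows, 38.9%, at chr12:51485000-51489999. Ribosomal windows ranged from 61.3% at Lars2 to 93.2% on chromosome 6. With pairs of mapping quality 30 or more at both ends, 23 windows passed the rule, 7 of them one-place windows, and the ribosomal ratio was 1.31 (1.16 to 1.48). The part of mapping quality in the counts was not tested further.

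**Figure D5:**
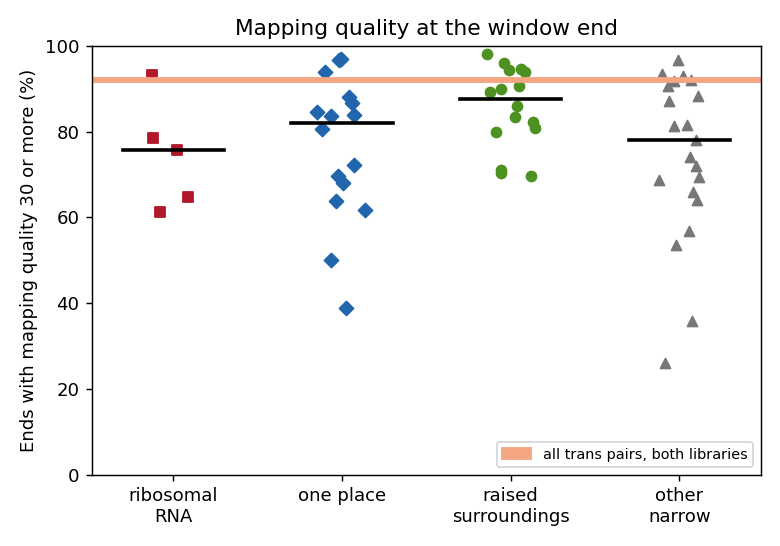
Share of second ends with mapping quality 30 or more (y axis, percent, both libraries) for each window by class (x axis), with a bar at each class median. The band marks all trans pairs at 91.8% to 92.5%; the class medians lie below it, between 75.7% and 87.6%.

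The members overlapped 40 annotated genes, 16 of them protein-coding and 9 lincRNA genes, and 27 windows overlapped none. The densest 300 bp lay in an exon in 11 windows, in an intron in 16 and outside genes in 31. Neither these places nor the gene overlaps were counted over all windows. Of the gene lists counted, Sfi1 fell in 3 windows and 1 of 405 zinc finger genes, Zfp180, in 1. None of the windows held a gene of the ribosomal RNA (155 genes by symbol), small nuclear RNA (23), 2-cell stage (27), ribosomal protein (325), olfactory (1365) or vomeronasal (560) lists, nor Lin28a or Lin28b. The share of all windows that hold such genes was not counted. Members were 0.0136% of the windows with pairs, so these absences do not set them apart. All lists go by symbol. The ribosomal RNA list misses CT010467.1, the 1 gene in the members that is annotated as rRNA. The zinc finger list holds symbols starting with Zfp and so misses Zc3h7a. The ribosomal protein list holds symbols starting with Rpl or Rps, so that genes or pseudogenes under other symbols are not counted. Soft-masked repeats made up a median of 43.4% of a member, against 27.0% over all windows, and GC 43.1% against 41.5%. Of the 58 members, 13, or 22.4%, lay within 100 kb of a run of 1000 or more unknown bases, against 0.795% of every 10th window with pairs. Within 1 Mb of the first known base of their chromosome lay 6 members, and within 1 Mb of the last lay 1. The shares of all windows in such end stretches were not counted.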

How the data were processed

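Hi-C libraries of wild-type and Lin28a knockout mouse ES cells, 1 per group, were analysed from the deposited lists of valid pairs. Per the labels, the authors called bases with CASAVA 1.8, aligned with Bowtie2 to mm10 and filtered pairs with HiC-Pro; each list joined 2 sequencing runs (flow cell and lane in the read names). Names of alternate and unplaced contigs in the lists show that reads were aligned to these beside the chromosomes. The protocol speaks of 2 replicates for 1 group, and whether the runs are those replicates is not given in the sources used here. The deposited mapping quality is a score per end as the aligner gave it. The other deposited columns used were positions and fragment numbers. Pairs per 5 kb window on a grid from 0 were counted with Python 3.11.15 and numpy 2.4.6, without normalization, and ratios were scaled to all trans pairs of the library. Both lists analysed here end within a line, the wild-type list soon after 90.75 Mb of chromosome 1, so first ends from 3 to 90.75 Mb were used.

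The fold is the count over the mean of the 20 windows within 50 kb, unknown bases included, which raises it by up to 2 times where flanks are largely unknown. Intervals (scipy 1.17.1) are exact Poisson for folds, with the flanks taken as fixed, exact Clopper-Pearson for shares and an exact binomial split for ratios. The richest stretch of chromosome 1 is the 1 Mb centred on a pair of the window with most pairs. Copies of the densest 300 bp were sought with BLAST 2.17.0 in the assembled chromosomes (identity 90% or more). Genes are from GENCODE release M21 and sequences from the RefSeq copy of mm10; 20 primers for ribosomal RNA and rDNA were taken from the study's primer list and matched exactly. Named are the genes in the 20 windows with most pairs, in windows whose ratio interval excludes 1, in the 5 with the highest share in 1 Mb of chromosome 1, and in adjacent windows; other genes and windows named were chosen after their values were seen. The functions were tested on simulated data. The members, classes and gene lists were chosen with earlier results of these data known.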

Additional observations from a re-analysis of the deposited data

How the results depend on the processing

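Of 123 values recomputed under alternative settings, 73 stayed within the limits set for a change and 50 moved. Changes of direction were looked for only in the ratio over all windows (13 values) and the ribosomal ratio (12 values). Of these, 0 showed one. A minimum of 30 pairs gave 739 windows, 69 of them one-place, median folds of 2.09 (wild-type) and 2 (knockout), a ratio of 1.08, 58 windows whose libraries differed, 88.3% of window ends at mapping quality 30, a fold from chromosome 2 of 1.42 and 27.1% of knockout pairs in the wild-type stretch. A minimum of 100 pairs gave 10 windows, 1 of them one-place, median folds of 7.47 and 10.7, a ratio of 1.24, 73.3% of ends at mapping quality 30, a fold from chromosome 2 of 9.48, 42.9% in the stretch and a median share in the richest 1 Mb of 3.66%. Windows of 10 kb with at least 100 pairs gave 11 windows, 1 one-place, folds of 7.56 and 8.92, a ratio of 1.20, a fold from chromosome 2 of 5.79, 42% in the stretch and a richest share of 4.72%. Mapping quality of 30 or more at both ends gave 23 windows, 7 one-place, a ratio of 1.20, 5 windows that differed and a fold from chromosome 2 of 3.83, and by construction 100% of ends; a limit of 40 was met by 49.7%. Flanks of 25 kb gave a wild-type fold of 4.29. Flanks of 50 kb counted per known base, a setting chosen after seeing the data, gave 4.92. Bins of 5 Mb gave a richest share of 15.8% and a grid shifted by 2.5 kb 6 windows that differed.

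The ratio over all windows was 1.04 scaled to the flanks and 1.03 with the segment of chromosome 8 kept. The ribosomal ratio was 1.13 scaled to flanks and 1.47 with other members left out of the flanks. The windows that differed numbered 9 under either scaling to flanks, 5 scaled to the own chromosome and 5 with the segment kept. The share over all windows was not recounted under any alternative setting. The smaller sequencing runs, with 324 and 126 pairs in the windows, gave ratios of 1.04 over all and 1.11 over the ribosomal windows, a knockout fold of 4, 77.6% at mapping quality 30, a richest share of 25% and 8.33% (1.03 to 27) of knockout pairs in the stretch. The cause of these changes was not tested.

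No paired analysis was possible because each group had 1 library. With about 50 pairs in most windows, a single window's ratio was known only within wide intervals. These cover counting error alone, not the spread between libraries, and pairs amplified by PCR are not independent molecules. With near-identical pairs counted once, 58 windows passed the rule. The ratio was then 1.14 over all windows and 1.30 over the ribosomal windows.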
